A study of Mus musculus with 2 samples.

Results

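CD8 T cells were taken from 2 single-cell RNA libraries of mouse salivary gland, 1 from NOD/ShiltJ mice, a strain that develops autoimmune sialadenitis and diabetes, and 1 from CD1 mice, an outbred control stock. Of 10591 kept cells, 460 were CD8 T cells, 439 of 4917 in the NOD library and 21 of 5674 in the CD1 library. Cells were kept from 500 unique molecular identifiers (UMIs, counted transcripts) and 300 genes upward, with a limit of 10% on mitochondrial RNA. A member held at least 3 UMIs of Cd3d, Cd3e, Cd3g and Trac together and at least 2 of Cd8a and Cd8b1 together, with 0 UMIs of Cd4, of Ncr1 and of the B-cell genes Cd79a and Ms4a1, and at most 1 of C1qa and Csf1r. The levels of these genes chose the cells and are given only as a description.

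Submandibular and sublingual glands of 20-week-old females were pooled within each strain, enzymatically dispersed and depleted of EpCAM-positive, Ter119-positive and dead cells, so shares of cells below are shares of what this depletion left. The labels give 3 mice per pool and the study's methods give 4. The labels give no transgene and no treatment for either group. With 1 pooled library per strain there were no replicates, so no test was made between strains or between cell types. Strain, pool and library cannot be told apart in any difference between NOD and CD1, and all intervals (95%) cover counting error only.

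CD8 T cells recognize peptides on MHC class I through a T-cell receptor and the CD8 co-receptor, a dimer of the Cd8a and Cd8b1 products. Once activated they can kill target cells by releasing perforin and granzymes from cytotoxic granules or by engaging Fas, and they secrete interferon gamma and chemokines such as CCL5. In tissues many of them become resident memory cells, held in place by integrins such as CD103 (Itgae) and CD49a (Itga1), and in Sjögren's disease they are part of the lymphocyte infiltrate of the salivary glands.

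Granzyme genes, which encode proteases of cytotoxic granules, recur in the comparisons that follow, so the 250 bases before the start of Gzma, Gzmk and Gzmb are shown for orientation. The sequences are those of RefSeq on GRCm38.p6, while the submitters' processing notes name GRCm39 for the counts. All 3 genes lie on the minus strand, Gzma at chr13:113100982-113101231, Gzmk at chr13:113180966-113181215 and Gzmb at chr14:56262335-56262584 (each the stretch before the start), and sequences are written 5′ to 3′ along the gene. Capitals mark the T-box core TCACAC (reverse complement GTGTGA), the motif of T-bet and Eomes, and the Runx motif TGTGGT (reverse complement ACCACA), searched on both strands with no overlap between them.
Gzma: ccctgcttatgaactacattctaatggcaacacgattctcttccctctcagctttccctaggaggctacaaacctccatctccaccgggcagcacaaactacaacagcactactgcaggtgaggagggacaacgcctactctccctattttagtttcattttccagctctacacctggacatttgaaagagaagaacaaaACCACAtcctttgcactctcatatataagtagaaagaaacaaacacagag
Gzmk: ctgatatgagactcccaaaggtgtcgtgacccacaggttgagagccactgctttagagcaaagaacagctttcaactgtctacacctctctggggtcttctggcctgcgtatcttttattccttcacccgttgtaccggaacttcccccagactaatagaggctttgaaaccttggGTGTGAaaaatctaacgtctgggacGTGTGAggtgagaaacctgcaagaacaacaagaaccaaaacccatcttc
Gzmb: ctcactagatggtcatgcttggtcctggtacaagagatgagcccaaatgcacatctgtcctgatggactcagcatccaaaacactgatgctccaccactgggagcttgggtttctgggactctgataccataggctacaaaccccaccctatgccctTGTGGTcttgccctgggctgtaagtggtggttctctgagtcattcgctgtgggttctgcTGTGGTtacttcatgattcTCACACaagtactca
Gzma held 1 Runx match, Gzmk 2 T-box matches, and Gzmb 2 Runx matches and 1 T-box match. Of 32851 mouse promoter windows of this length, 12.3% held the T-box core and 14.0% the Runx motif. A match of these letters is not evidence of binding.

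The NOD members made up 8.93% of kept cells (8.15–9.76) and 26.4% of the 1660 T cells of that library (24.3–28.6). The CD1 members made up 0.370% of kept cells (0.229–0.565) and 23.6% of 89 T cells (15.2–33.8). The share of kept cells was thus far apart in the 2 libraries, whereas the share of T cells was not separated by its intervals. Per CD4 T cell, chosen by the same rule with at least 1 UMI of Cd4 and 0 of Cd8a and Cd8b1 (801 NOD and 30 CD1 cells), there were 0.548 CD8 T cells in NOD (0.487–0.616) and 0.700 in CD1 (0.381–1.26). These intervals also overlap. The ratio depended on how much mitochondrial RNA was tolerated in NOD, where it was 0.690 at a limit of 5%.

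Members held a median of 7109 UMIs and 2655 genes in NOD (2137 to 35350 UMIs) and 8171 UMIs and 2944 genes in CD1 (1916 to 24204 UMIs), and summed to 3407505 and 219378 UMIs. The lowest level that 3 UMIs represent was therefore 0.880 CPM (UMIs scaled to a common total for each group of cells) in NOD and 13.7 CPM in CD1. Only 6 barcodes were kept in both libraries, 0.122% of the NOD and 0.106% of the CD1 cells. Scrublet, a doublet caller, marked 11 of the 439 and 2 of the 21 members, which were kept and left out in an alternative.

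Both CD8 chains were seen in 402 NOD members, Cd8a alone in 27 and Cd8b1 alone in 10, and all 21 CD1 members held both. Cd8a was at 704 CPM in NOD and 670 CPM in CD1, Cd8b1 at 436 and 761 CPM, and Cd3d at 685 and 561 CPM. At the edge of the rule, 25 NOD members held 2 UMIs of Cd8a and Cd8b1, and 25 NOD T cells without Cd4 held 1 and were left out, as were 358 NOD T cells with neither co-receptor. A further 48 NOD cells and 4 CD1 cells met every condition except that they held Ncr1. Of the CD8 T-cell markers, the rule did not use Gzmk and Ccl5. Gzmk was found in 279 of 439 NOD and 9 of 21 CD1 members, and Ccl5 in 423 and 17. In the 216 NOD NK-lineage cells described below, Ccl5 was found in 187 and Gzmk in 23, so Ccl5 is not particular to the members. The markers were chosen with earlier results of these data known and are no independent support for the label.

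RNA of other cell types was present at varied levels, and its part in the results was not tested beyond the alternatives given. All 7 endothelial markers had UMIs in both groups, summing to 192 CPM in NOD and 333 CPM in CD1 with Flt1 highest. At least 2 UMIs of Kdr, Cdh5, Plvap, Flt1, Emcn and Egfl7 were held by 10 NOD and 2 CD1 members, up to 187 in 1 NOD cell. The 7 fibroblast and mural markers summed to 5.58 CPM in NOD and had 0 UMIs in CD1. Of 8 B-cell markers, Ebf1 led at 28.2 CPM in NOD and 160 CPM in CD1, and of 10 epithelial markers Prol1 led at 15.8 and 82.1 CPM. The endothelial sum and the leading B-cell and epithelial markers thus stood higher in the CD1 members, over 21 cells, and the fibroblast and mural sum did not. Helper markers other than Cd4 summed to 117 CPM in NOD, led by Icos at 47.8 CPM, and Foxp3 was at 1.17 CPM. Of the 9 macrophage and monocyte markers, C1qa led at 4.70 CPM. Plasma-cell RNA was not particular to the members in NOD, with Igha at 90.7 CPM in the members and 95.5 CPM in endothelial cells of the same library. Trdc, the constant gene of the delta chain, was found in 6 of 439 NOD and 0 of 21 CD1 members, the latter allowing up to 16.1% with a UMI (Clopper-Pearson) and setting no limit on the cells expressing it.

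Ccl5, which encodes a chemokine that draws T cells and monocytes, was abundant in the NOD CD8 T cells. Its level was 6051 CPM in NOD CD8 T cells, 468 CPM in NOD CD4 T cells, 2707 CPM in NOD NK-lineage cells and 1942 CPM in CD1 CD8 T cells. The median NOD member held 37 Ccl5 UMIs (quartiles 17 and 62, highest 405), so nearly every member carried it, in contrast to the median of 0 in CD4 T cells. With each cell thinned to 2000 UMIs, which left 439 NOD and 20 CD1 members, Ccl5 was found in 92.7% of NOD and 70.0% of CD1 members, against 96.4% and 81.0% unthinned. In endothelial cells of the NOD library (median 5460.5 UMIs), which should lack it, the thinned share was 5.35%. Free RNA in barcodes with 10 to 100 UMIs held 1702 CPM of Ccl5 in NOD and 139 CPM in CD1.

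CD8 and CD4 T cells of the NOD library were compared over the 11518 genes for which the summed UMIs gave at least 10 expected UMIs in each. Of these, 383 were at least 2-fold higher in CD8 T cells (3.33%) and 891 at least 2-fold lower (7.74%), with a median log2 ratio of −0.02. Both groups came from the same library, so strain and library do not enter this comparison. Gene lists are described by their counts past 2-fold and some also by their median, to be read beside these values of all genes.

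Of 15 granule and death ligand genes compared, 10 were at least 2-fold higher in CD8 than in CD4 T cells and none lower, with a median log2 ratio of 2.18. Prf1, the pore-forming perforin, was at 81.0 CPM in CD8 and 6.93 CPM in CD4 T cells, a log2 ratio of 3.55 (3.08–4.04). Nkg7, which takes part in granule release, was at 1243 and 272 CPM (log2 2.19, 2.11–2.28), and Fasl, the ligand of Fas, at 118 and 26.1 CPM (2.18, 1.91–2.45). Ctsw, Cst7, Crtam and Gzmm were also past 2-fold, at log2 ratios of 1.22, 1.18, 2.33 and 3.52. Srgn, the proteoglycan of granules that most leukocytes make, was not, at 735 and 798 CPM.

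The granzymes, serine proteases that enter the target cell, were spread very differently over the members. Gzmk, at 201 CPM in CD8 and 36.8 CPM in CD4 T cells (log2 2.45, 2.23–2.67), was found in 279 of 439 members at a median of 1 UMI and a highest value of 8. Gzma, at 349 and 4.72 CPM (6.21, 5.69–6.78), was found in only 64 members, and the 10% of members with most Gzma held 98.3% of its UMIs. Gzmb, at 100.1 and 12.3 CPM (3.03, 2.67–3.40), was found in 92 members, and the 10% with most Gzmb held 79.2%. The level of Gzmk was thus shared by most members and that of Gzma by few. Gzma and Gzmb occurred together in 32 members, Gzmk and Gzma in 52, Gzmk and Gzmb in 70, and 130 members (29.6%) held none of the 3. Members with Gzma held Gzmb in 50% and members without it in 16%, at median depths of 7208 and 7060 UMIs.

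**Figure D1:**
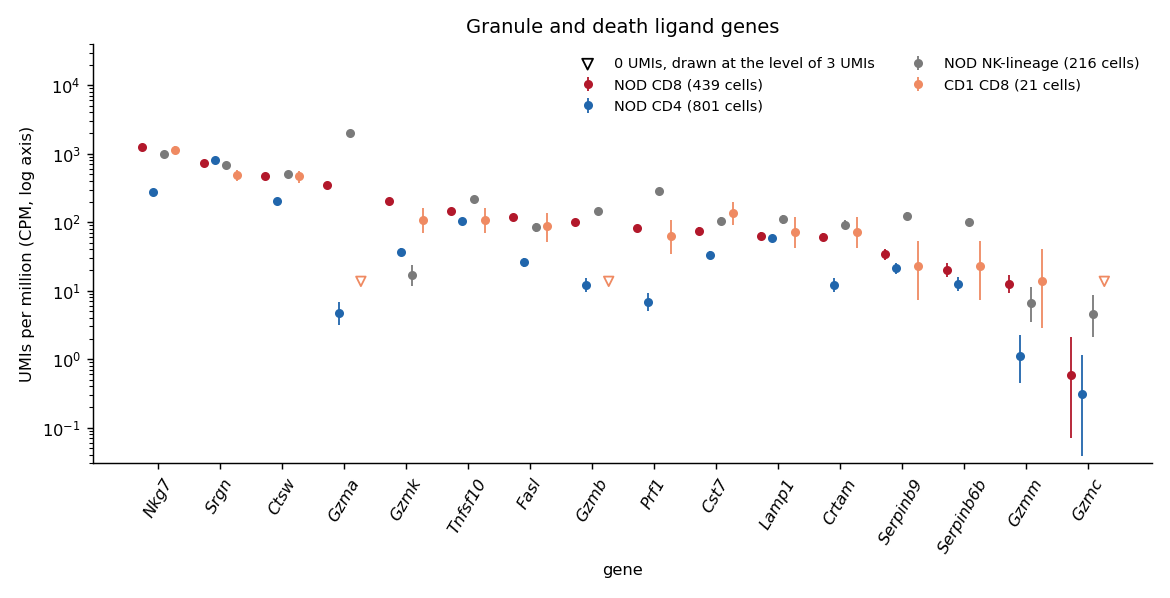
Summed CPM (log axis) of the 16 granule and death ligand genes in CD8, CD4 and NK-lineage cells of the NOD library and in CD1 CD8 T cells, with exact Poisson intervals of 95%. Open triangles mark 0 UMIs, drawn at the level of 3 UMIs. Gzma stands at 349 CPM in NOD CD8 T cells, between 4.72 CPM in CD4 and 2038 CPM in NK-lineage cells, and at 0 UMIs in CD1 CD8 T cells.

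**Figure D2:**
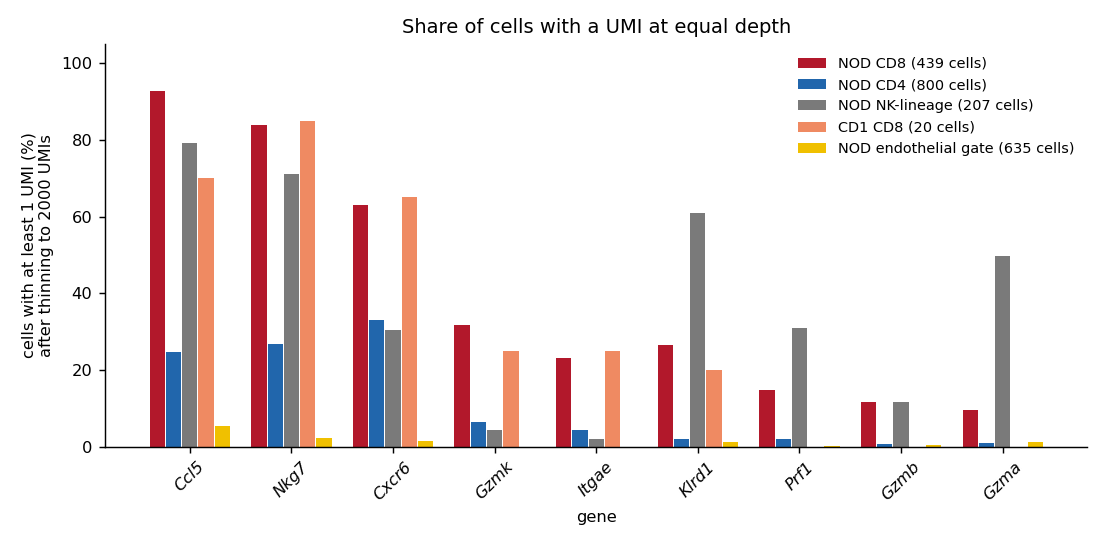
Share of cells (%) with at least 1 UMI of 9 genes after each cell was thinned to 2000 UMIs, in NOD CD8, CD4 and NK-lineage cells, CD1 CD8 T cells and NOD endothelial cells. In NOD CD8 T cells Ccl5 reached 92.7% and Gzma 9.57%, against 5.35% and 1.10% in the endothelial cells, which should lack both.

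Receptors that are best known from NK cells were the list with the highest median, 2.52, with 9 of 12 compared genes at least 2-fold higher than in CD4 T cells and 1 lower. Klrd1 (CD94) was at 175 and 9.92 CPM (log2 4.15, 3.77–4.54) and Klrc1, which encodes its inhibitory partner NKG2A, at 128 and 3.31 CPM (5.27, 4.64–5.98). Klrk1 (NKG2D), an activating receptor for stress ligands, was at 211 and 14.2 CPM, and Klre1 at 87.5 and 1.73 CPM. The gene on the lower side was Fcer1g, an Fc receptor adaptor, at 8.80 and 18.4 CPM. Klrd1 was found in 26.4% of thinned members and in 1.10% of thinned endothelial cells.

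The transcription factors parted in both directions, 3 of 22 higher and 7 lower, with a median of −0.29. Eomes, a T-box factor of memory and cytotoxic cells, was at 88.3 CPM in CD8 and 3.62 CPM in CD4 T cells (log2 4.61, 4.00–5.29). Zeb2, a transcription factor of terminal effector cells, was at 230 and 55.7 CPM (2.04, 1.86–2.23) and Ikzf3 at 586 and 225 CPM (1.38, 1.28–1.48). Tbx21, which encodes T-bet, stood at 174 and 94.4 CPM and stayed under 2-fold (0.88, 0.72–1.05). Those lower in CD8 T cells included Foxp3, the factor of regulatory T cells, Zbtb7b, which directs the CD4 lineage, Gata3, Ikzf2, Id3 and Irf4. Ikzf2 was at 163 CPM against 1058 CPM in CD4 T cells (−2.69, −2.82 to −2.57).

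Genes of tissue residency were 5 of 15 higher and 2 lower, with a median of 0.11. Itgae, which binds E-cadherin on epithelium as CD103, was at 179 CPM in CD8 and 29.1 CPM in CD4 T cells (log2 2.62, 2.38–2.87). Itga1, the collagen-binding CD49a, was at 624 and 97.9 CPM (2.67, 2.54–2.80). Runx3, a factor of the CD8 lineage and of residency, was at 424 and 144 CPM, and Hopx and Gpr34 were also past 2-fold. Rgs16 and Ahr were the 2 lower genes, at log2 ratios of −2.22 and −1.79. Cd69, which retains cells by opposing S1pr1, differed little, at 288 and 268 CPM (0.11, −0.01 to 0.22). S1pr1, the receptor for exit from tissue and a gene of the trafficking list, was lower at 49.0 and 128 CPM (−1.39, −1.64 to −1.15). Zfp683 (Hobit) had 0 UMIs in both groups.

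Among 18 chemokine and trafficking receptors compared, 3 were higher and 5 lower. Cxcr6, a receptor of tissue-homing T cells, was at 654 CPM in CD8 and 269 CPM in CD4 T cells (log2 1.28, 1.19–1.37). Cx3cr1 was at 24.4 and 5.35 CPM and was found in 33 members. Ccr6, Ccr8, Ccr7 and Cxcr5, the last the receptor for B-cell follicles, were at least 2-fold lower together with S1pr1, and Ccr6 was at 2.05 CPM against 26.4 CPM.

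Of 15 cytokines and chemokines compared, 5 were higher and 4 lower. Ccl4, another inflammatory chemokine, was at 314 CPM in CD8 and 71.0 CPM in CD4 T cells (log2 2.15, 1.99–2.31), Ccl3 at 36.1 and 10.1 CPM, and Xcl1, which attracts cross-presenting dendritic cells, at 279 and 116 CPM. Csf2 was also past 2-fold, at 9.10 and 2.83 CPM. Il21, Il10, Lta and Il2 were lower, Il21 at 1.76 CPM against 26.1 CPM. Ifng and Tnf, the main inflammatory cytokines of both lineages, stood at 137 and 156 CPM in CD8 and 124 and 139 CPM in CD4 T cells, each under 2-fold.

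Genes of checkpoints and chronic stimulation were mostly lower than in CD4 T cells, 12 of 21 with 4 higher, and had the lowest median of the lists, −1.34. Pdcd1 (PD-1) was at 28.2 CPM in CD8 and 71.9 CPM in CD4 T cells (log2 −1.35, −1.69 to −1.03) and was found in 54 members. Ctla4 was at 21.4 and 237 CPM and Tox, a factor of persistent stimulation, at 755 and 1673 CPM. Icos, Tnfrsf4, Tnfrsf18 and Tnfrsf9, costimulatory receptors that activated helper and regulatory T cells express strongly, were lower too. The 4 on the higher side were Cd244a (58.4 and 1.89 CPM), Cd160 (38.2 and 5.67 CPM), Cd38 (154 and 50.1 CPM) and Nr4a2 (49.6 and 24.1 CPM). Lag3 and Havcr2 did not reach 2-fold, at log2 ratios of −0.81 and 0.40.

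In each of the remaining lists at most 4 genes were past 2-fold. None of 19 genes of the T-cell receptor complex was higher and 2 were lower, Cd5 and Cd28, at log2 ratios of −1.39 and −1.08. Of 19 cytokine receptors, 4 were lower (Il6ra, Il2ra, Il6st and Il18r1) and none higher, and Il7r, the survival receptor of memory cells, was at 259 and 412 CPM. Naive and central memory genes had 1 of 15 higher, Dapl1, and 2 lower, Igfbp4 and Bach2, and Lef1 and Tcf7, factors of naive and stem-like cells, were at 158 and 166 CPM in CD8 against 295 and 283 CPM in CD4 T cells. Of 34 interferon-response genes, Ly6a, Mx1 and Ifi213 were higher and Iigp1 lower, with a median of 0.35. Of 17 cell division genes, Rrm2 and Cdk1 were higher and Ube2c lower, the last only while dividing cells were included (0.29 without them). Of 16 dissociation and stress genes, Atf3 and Dusp1 were lower, with a median of −0.40.

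**Figure D3:**
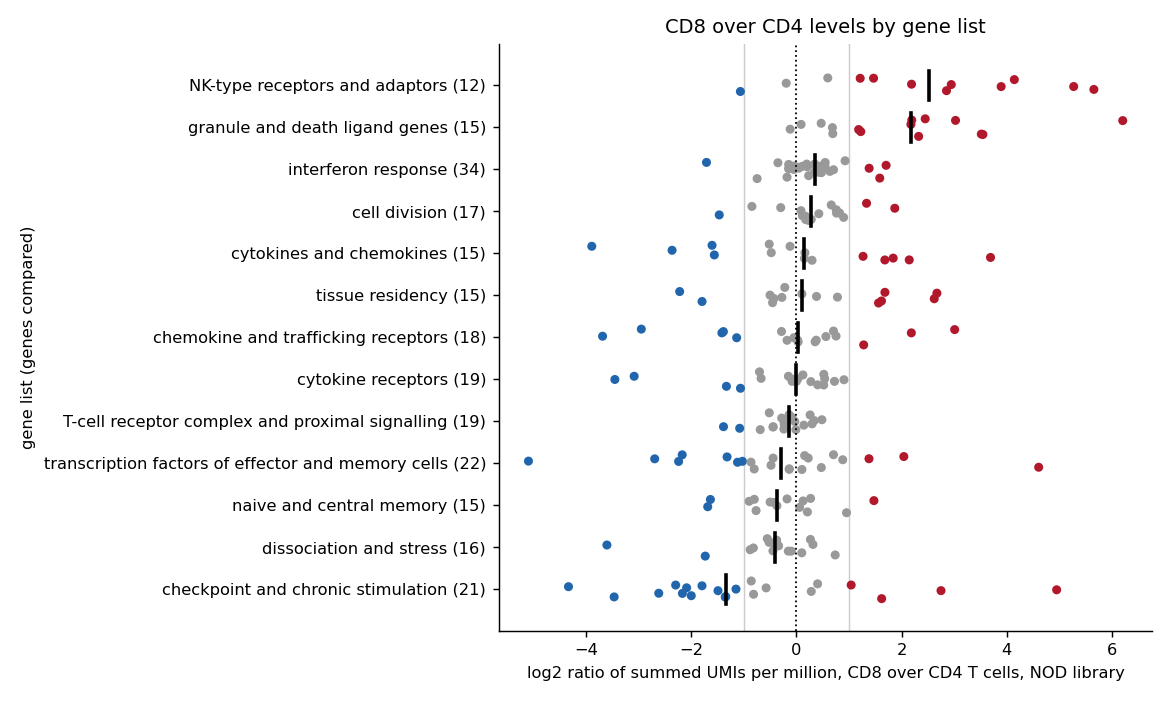
Log2 ratios of CD8 over CD4 T cells in the NOD library for each gene compared (points), by gene list, with the number of genes compared in brackets. Black bars are list medians, from 2.52 for NK-type receptors to −1.34 for checkpoint genes, the dotted line is the median of all 11518 genes, and grey lines mark 2-fold.

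The 10 genes highest over CD4 T cells, ranked by the interval bound nearest to 0, were Gzma, Klre1, Klrc1, AY761185, Gm38828, Cd244a, Eomes, Klrd1, Gm40892 and Ccl5. All 47 UMIs of AY761185 came from 1 cell, whereas Gm40892, a gene model with no function given in the files, was found in 330 members at 810 CPM against 58.1 CPM in CD4 T cells. Gm38828 was found in 58 members and held 2 UMIs in CD4 T cells. Only 5 of the 10 had at least 10 UMIs in the 2 CD1 groups together, and those 5 (Klrc1, Eomes, Klrd1, Gm40892 and Ccl5) were at least 2-fold higher in CD8 there too. Over the 3632 genes that could be compared in CD1, 4.76% were that much higher.

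The 10 genes lowest against CD4 T cells were Col24a1, Stfa3, Fbn2, Nts, Ccl1, Gm2663, Kcnc2, 1810009J06Rik, Pdzrn3 and Ralyl. Col24a1 had 0 UMIs in CD8 T cells and was 77.8-fold lower than in CD4 T cells, taking 3 UMIs as the floor. Its interval reaches up to a log2 ratio of −5.98. These genes marked few CD4 T cells, from 10 cells for Ccl1 and Ralyl to 99 cells for Pdzrn3. None had 10 UMIs in the 2 CD1 groups together, so the order could not be followed there.

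NK-lineage cells are the other cytotoxic lymphocytes of the gland, and 216 NOD cells were taken as such (Ncr1 present, Trac, Cd8a, Cd8b1 and Cd4 absent, at most 2 CD3 UMIs). Among 10465 genes compared, 475 were at least 2-fold higher in CD8 T cells (4.54%) and 1187 lower (11.3%), with a median log2 ratio of −0.04. Endothelial markers summed to 1074 CPM in the NK-lineage cells and fibroblast and mural markers to 485 CPM, against 192 and 5.58 CPM in the CD8 T cells. Without the 10 CD8 and 23 NK-lineage cells that held at least 2 endothelial UMIs, 531 of 9861 genes were higher (5.38%) and 727 lower (7.37%), so the count of lower genes depended on those cells.

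Granule genes did not part CD8 T cells from NK-lineage cells in 1 direction. Gzmk was higher in CD8 T cells at 201 CPM against 16.8 CPM (log2 3.58), and Gzma, Prf1, Serpinb9 and Serpinb6b were lower among 15 compared, with and without the endothelial-marked cells. Gzma was at 349 CPM against 2038 CPM, Prf1 at 81.0 against 285 CPM, and Serpinb9, a granzyme B inhibitor, at 34.3 against 123 CPM. Gzmb was at 100.1 and 144 CPM and Nkg7 at 1243 and 989 CPM, both under 2-fold. NK-type receptors were lower in 16 of 19, with a median of −5.02. Klrc1 was not among them, at 128 CPM in CD8 and 79.0 CPM in NK-lineage cells (0.70, 0.43–0.97). The choice of cells enters this list, since Ncr1 had to be absent in members and present in NK-lineage cells. The 48 NOD cells left out of the members only for Ncr1 held Klra8 at 211 CPM, against 1.76 CPM in the members.

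On the higher side against NK-lineage cells stood Themis, a T-cell signalling adaptor, at 1491 against 5.61 CPM, then Cd6, Gm40892, A430093F15Rik and Fam169b, and on the lower side Aoah, Klra13-ps, Klra9, Clnk and Klra8. T-cell receptor signalling genes were 9 of 19 higher and none lower. Itgae (log2 3.76), Cd101 and Gpr183 of the residency list were higher, while Ahr, Rgs2 and Bhlhe40 were lower. The cytokine receptor Il7r was higher at 259 against 41.8 CPM and Il2rb, the shared receptor of interleukins 2 and 15, lower at 229 against 781 CPM. Xcl1 was lower at 279 against 1423 CPM and Ccl5 higher at 6051 against 2707 CPM. Of 33 interferon genes, 8 were higher and 2 lower (Rsad2 and Iigp1), and without the endothelial-marked cells 11 were higher and none lower. Ccr2, a receptor of recruited cells, was lower at 164 against 342 CPM. Of 21 checkpoint genes, 7 were higher than in NK-lineage cells, Ctla4 and Pdcd1 among them, and 4 lower, with a median of −0.07. Without the endothelial-marked cells 8 of them were higher and 5 lower.

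Within the NOD CD8 T cells, Ccl5 and Lef1, a factor of naive and stem-like cells, were not exclusive. At least 3 Ccl5 UMIs were held by 407 of 439 members (92.7%, 89.87–94.96) and none by 16, and 167 members held Lef1 together with at least 3 Ccl5 UMIs (38.0%, 33.5–42.8). In CD1, 17 of 21 members held at least 3 Ccl5 UMIs, 4 held none, and 4 held Lef1 together with at least 3.

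Ward clustering of the NOD members, without the genes of the rule and some marker genes, Ccl5 and Lef1 among them, gave 4 groups of 247, 178, 8 and 6 cells. Other than Ccl5 and Lef1, the genes that follow were open to the clustering, and all their values are a description. The 12 leading genes of group 1 included Aff2, Gzma, Fgl2, Gpr34, Rcbtb2 and P2rx7, a receptor for extracellular ATP. Fgl2 was found in 213 of its 247 cells, Rcbtb2 in 196 and P2rx7 in 175, but Gpr34 in 102 and Aff2 in 46. The rarest of the 12 were Hmgcll1, in 6 cells, and Klra5, in 3. Itgae was at 295 CPM in group 1 and 56.0 CPM in group 2, Cxcr6 at 923 and 363 CPM, Gzmb at 148 and 35.2 CPM, and Ifng at 169 and 86.9 CPM. Gzma was found in 47 cells of group 1 (627 CPM) and 12 of group 2 (21.5 CPM).

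Group 2 was led by Dapl1, Atp2b2, Nrn1, Slamf6, a receptor of progenitor-like CD8 T cells, Nsg2 and Ikzf2. Slamf6 was found in 100 of its 178 cells, but Nsg2 in 59, Ikzf2 in 46, Dapl1 in 24, Nrn1 in 12 and Atp2b2 in 8, each a minority of the group. Tcf7 was at 261 CPM in group 2 and 101 CPM in group 1, Lef1 at 248 and 103 CPM, Il7r at 427 and 151 CPM, and Pdcd1 at 62.5 and 3.97 CPM. Tox2 and Havcr2 were also among its 12 leading genes, in 16 and 15 cells. Ccl5 was at 6282 CPM in group 1 and 6369 CPM in group 2. Gzmk was at 197 and 221 CPM and Prf1 at 75.9 and 94.1 CPM, so these granule genes did not follow Gzma and Gzmb. The 2 groups were of like depth, with median UMIs of 6899 and 7183.

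**Figure D4:**
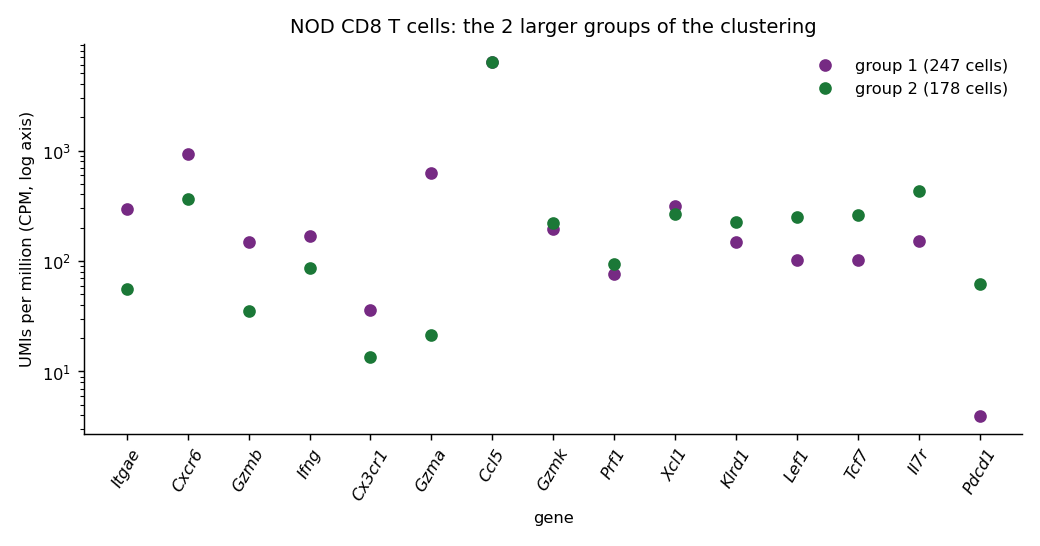
Summed CPM (log axis) of 15 genes in the 2 larger Ward groups of NOD CD8 T cells, 247 and 178 cells. Itgae, Cxcr6, Gzmb and Gzma stand higher in group 1, Lef1, Tcf7, Il7r and Pdcd1 higher in group 2, and the points for Ccl5 lie close together, at 6282 and 6369 CPM.

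The 8 cells of group 3 were led by H1f5, Mki67 and Top2a, genes of dividing cells, and were deep, with a median of 20081.5 UMIs. The MHC class II genes Cd74 and H2-Eb1 were among its leading genes but in 3 and 5 cells. The 6 cells of group 4 were led by Nrp1, Crim1 and Cst3. Across all members, at least 3 UMIs of Mki67 and Top2a were found in 14 of 439 NOD members (3.19%), against 39 of 801 CD4 T cells (4.87%), and in 3 of 21 CD1 members.

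T-cell receptor segments were read sparsely by this assay. Trac was found in 398 NOD members, but a variable segment of the beta chain in only 64 (14.6%). Among 60 NOD members with exactly 1 such segment, Trbv3 was found in 9 (15.0%, 7.10–26.6), Trbv20 in 7 and Trbv13-2 in 6, and the most frequent alpha segment was Trav3-3, in 12 of 60. No segment dominated at this depth. Trgc2 and Trgc4, constant genes of the gamma chain, were found in 52 and 59 NOD members (11.8% and 13.4%) but in 11 and 10 of 801 CD4 T cells, and in 7 and 7 of 21 CD1 members. Trgc4 was not particular to the members, since 33 of 216 NOD NK-lineage cells held it, whereas Trgc2 had 0 UMIs there. The reads do not show whether these transcripts were rearranged.

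NOD and CD1 CD8 T cells were compared over 3865 genes. Here the median log2 ratio of all genes was 0.23, and 412 genes were at least 2-fold higher in NOD (10.7%) and 55 lower (1.42%). Scaled by the median ratio instead of the total, 254 were higher and 142 lower. The minimum of expected UMIs was taken on the pooled level, to which NOD gave most UMIs, so it let in genes high in NOD more readily than genes high in CD1. With the same minimum set on the mean of both levels, an alternative chosen after seeing the data, 3791 genes were compared, 265 were higher in NOD (6.99%) and 126 lower (3.32%), so the split between the directions depends in part on this minimum. Of the genes named below, Il12rb2, Rgs2, Cd101, Cd244a, Nr4a2, Ifit1, Gbp6, Mx1, Fos, Zfp36 and Atp8a2 then fell out of the comparison, and Lta, Ly6c2 and 5 genes of cell division entered it as lower in NOD. The CD1 level rests on 21 cells, and 3 of them were dividing. The same contrast in CD4 T cells had a median of 0.11, with 7.66% of 4219 genes higher and 0.877% lower, or with that alternative 4.57% and 1.69% of 4134, and is given beside some of the genes that follow.

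Gzma and Gzmb were at 349 and 100.1 CPM in NOD and had 0 UMIs in the 21 CD1 members. That zero allows up to 14.3% of such cells with a UMI when taken as 3 of 21, and up to 16.1% by the Clopper-Pearson interval. In NOD, 14.6% of members held Gzma, a share within the second limit, and 21.0% held Gzmb. Because 10% of the NOD members held nearly all Gzma UMIs, up to 146 in 1 cell, a single such cell among the 21 would have changed the CD1 level, and no fold is given for these genes. Free RNA held Gzma at 240 CPM in NOD and 34.4 CPM in CD1. They were the only 2 of 12 granule genes past 2-fold, with the CD1 level set to 3 UMIs, and the list median was 0.37. Gzmk was at 201 CPM in NOD and 109 CPM in CD1 (log2 0.88, 0.29–1.53), Prf1 at 81.0 and 63.8 CPM (0.34, −0.43 to 1.23) and Nkg7 at 1243 and 1149 CPM (0.11, −0.07 to 0.30), with −0.20 for Nkg7 in CD4 T cells.

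Of 7 cytokines and chemokines compared, Ccl4, Ccl5 and Ifng were higher in NOD and none lower. Lta, which encodes lymphotoxin alpha, fell below the minimum on the pooled level but stood at 9.68 CPM in NOD and 91.2 CPM in CD1 (log2 −3.23, −4.08 to −2.36), from 33 UMIs in NOD and 20 UMIs in 9 of the CD1 members, with −2.37 in CD4 T cells. Ccl4 was at 314 and 41.0 CPM (log2 2.94, 2.01–4.07), Ccl5 at 6051 and 1942 CPM (1.64, 1.501–1.782) and Ifng at 137 and 50.1 CPM (1.45, 0.60–2.47). In CD4 T cells the log2 ratios were −0.01 for Ccl5 and 1.74 for Ifng, and Ccl4 had 0 UMIs in the CD1 CD4 T cells. Ccl5 free RNA differed between the libraries as given above, and with 5% free RNA subtracted the Ccl5 ratio in CD8 T cells was 1.59. Without the dividing cells it was 1.26.

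The 2 integrins of residency differed in how they compared. Itgae was at 179 CPM in NOD and 182 CPM in CD1 (log2 −0.02, −0.49 to 0.48) and Cxcr6 at 654 and 720 CPM (−0.14, −0.37 to 0.10), with −0.75 for Cxcr6 in CD4 T cells. Itga1, Rgs2 and Cd101 were at least 2-fold higher in NOD among 11 residency genes, Itga1 at 624 and 214 CPM (1.54, 1.13–1.99) with 0.25 in CD4 T cells, and Gpr183, a receptor for oxysterols, was lower at 71.3 and 246 CPM, as it was in CD4 T cells (−1.78). With the minimum on the mean of both levels, 1 of 9 residency genes was higher and 1 lower.

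Of 26 interferon-response genes compared, 7 were at least 2-fold higher in NOD and 2 lower, with a median of 0.57 beside 0.23 for all genes. Ifi27l2a was at 773 CPM in NOD and 63.8 CPM in CD1 (log2 3.60, 2.85–4.47) and Mndal at 566 and 91.2 CPM (2.63, 2.00–3.35), and in CD4 T cells their ratios were 1.34 and 2.31. Free RNA held Ifi27l2a at 937 and 189 CPM. Ifit1, Mx1, Ifi209, Ly6a and Gbp6 were the others, Mx1 in 3 of the 21 CD1 members and Gbp6 with an interval that reaches 0. Isg20 and Socs1, a feedback inhibitor of cytokine signalling, were lower at log2 ratios of −1.30 and −1.22, and Socs1 was also lower in CD4 T cells (−1.13). With the minimum on the mean of both levels, 4 of 22 interferon-response genes were higher and 2 lower. Their median was then 0.48 beside 0.14 for all genes.

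**Figure D5:**
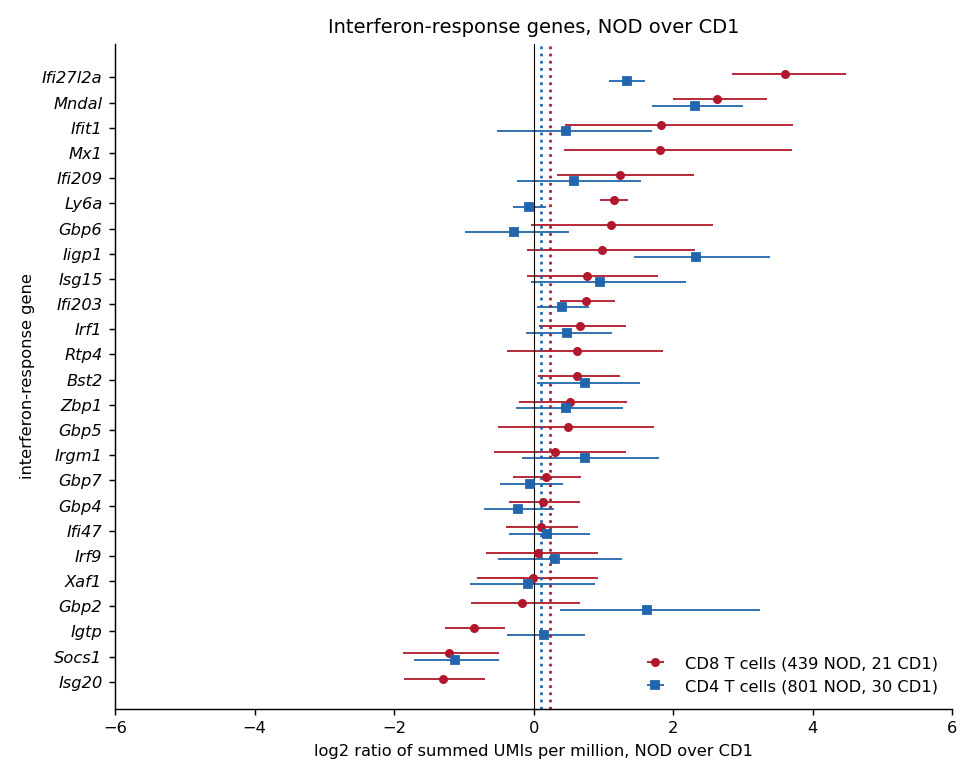
Log2 ratios of NOD over CD1 with 95% counting intervals for 25 of the interferon-response genes compared in CD8 T cells (circles) and, where enough UMIs were present, in CD4 T cells (squares). Dotted lines are the medians of all genes, 0.23 for CD8 and 0.11 for CD4. Ifi27l2a and Mndal lie farthest to the right in CD8 T cells and Socs1 and Isg20 farthest to the left.

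In the other lists, Zeb2, Rora and Tbx21 were higher in NOD among 11 transcription factors, Zeb2 at 230 and 22.8 CPM (log2 3.33, 2.10–4.96) and from 1 of the 21 CD1 members, with 0.95 in CD4 T cells. Il7r, Tgfbr1, Il21r and Il12rb2 were higher among 13 cytokine receptors, Il7r at 259 and 36.5 CPM (2.83, 1.84–4.04), and in CD4 T cells Il7r stood at 0.79 and Tgfbr1 at −0.21. The interval of Il12rb2 reaches 0 (1.11, −0.04 to 2.57), from 6 CD1 UMIs. Klf2 and Lef1 were higher and Bcl2, a survival factor, lower among 10 naive and memory genes, and Bcl2 was at 614 and 1358 CPM (−1.15, −1.32 to −0.97), with −1.25 in CD4 T cells, where Lef1 stood at 1.21. Fos, Zfp36, Fosb and Jun were higher among 10 dissociation and stress genes, at log2 ratios of 1.99, 1.95, 1.78 and 1.37, against 0.10, −0.35, −0.31 and 0.67 in CD4 T cells, and whether tissue handling differed was not tested. Klrk1 and Klre1 were higher among 6 NK-type receptors, Nr4a2 and Cd244a among 5 checkpoint genes and Itgal, a subunit of the adhesion integrin LFA-1, among 10 trafficking receptors. With the minimum on the mean of both levels, 0 of 4 checkpoint genes and 2 of 9 dissociation and stress genes were higher. Trbc2 was the only one of 19 receptor complex genes past 2-fold, lower in NOD at −1.24 and in CD4 T cells at −1.07. Hmgb2 was lower among 5 division genes, at −1.12, and at 0.47 without dividing cells. Under the minimum on the mean of both levels, Ube2c, Cenpf, Birc5, Cdk1 and Stmn1 were lower too, and 1 CD1 cell held all 48 Ube2c UMIs.

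Of the 3865 genes compared, the 10 highest in NOD were Gvin3, Gzma, BC018473, St6galnac2, E330020D12Rik, Ifi27l2a, Gzmb, Atp8a2, Gm40892 and Zeb2. The places of Gzma and Gzmb rest on 0 UMIs in the 21 CD1 members, and no fold is given for them, as stated above. Gvin3, of the interferon-inducible GTPases, was found in 404 NOD members (734 CPM) and at 2 UMIs in CD1, a log2 ratio of 6.33 (4.48–9.38), with 7.38 in CD4 T cells. St6galnac2 and E330020D12Rik had 0 UMIs in CD1 and were 9.42-fold and 8.97-fold higher, taking 3 UMIs as the floor. Their intervals reach down to log2 ratios of 2.93 and 2.86. Their CD4 ratios were 4.46 and 3.93 on the log2 scale. Gm40892 was at 2.83, with 0 UMIs in CD1 CD4 T cells.

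The 10 lowest in NOD among the genes compared were Gm15772, Cks2, Gpr183, Ppia, Tubb4b, Cdk6, Ly6e, Mir6236, Tuba1c and Ubb. Gm15772 was found in all 21 CD1 members and was at 86.9 CPM in NOD and 875 CPM in CD1, a log2 ratio of −3.33 (−3.60 to −3.06), with −3.20 in CD4 T cells. Ly6e, Cdk6 and Ubb stood at −1.45, −1.47 and −1.60, with −1.46, −1.22 and −1.20 in CD4 T cells. Cks2, Tubb4b and Tuba1c, genes raised in dividing cells, rested on few CD1 cells, with 65.7% of the Cks2, 79.2% of the Tubb4b and 93.9% of the Tuba1c UMIs in 1 cell each. Without dividing cells their ratios were −0.74, 0.57 and 2.66. The row named Mir6236 was at 8148 CPM in CD1 free RNA and 1057 CPM in NOD free RNA, and its ratio of −1.49 turned to 2.54 with 5% free RNA subtracted.

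Ly6c2, a surface marker of memory CD8 T cells, was found in 3 of 439 NOD members and in 8 of 21 CD1 members, at 3 and 29 UMIs. It fell below the minimum of expected UMIs and was not counted among the genes compared. The strains differed likewise in NK-lineage cells, where it was at 4.59 CPM in NOD and 122 CPM in CD1, from 9 and 355 UMIs. In CD4 T cells it was at 0.787 CPM in NOD and 4.11 CPM in CD1, from 5 UMIs and 1 UMI.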

How the data were processed

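Counts of UMIs per gene and barcode were deposited by the authors for 2 libraries, with no cell filter or scaling; per the file headers they came from Cell Ranger 8.0.0. The submitters' processing notes also name GRCm39, Seurat 5.0.1 and R 4.3.1. The NOD matrix held 52790319 UMIs over 1298073 barcodes and the CD1 matrix 56483149 over 1331542, of which the kept cells held 39367412 and 45898685. Cells were chosen by the rule given above and no annotation was used. For each group of cells UMIs were summed and scaled to CPM, and an exact Poisson interval was attached. Log2 ratios had conditional binomial intervals, and shares Clopper-Pearson intervals, all at 95%. Genes with at least 10 UMIs expected in each group from the pooled level were compared, and those at a ratio of at least 2 or its inverse were counted.

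Named genes were the markers, the list genes highest in NOD CD8 T cells or past 2-fold, and the 10 (5 against NK-lineage cells) with the interval bound farthest from 0 on each side, without genes of the rule, mitochondrial and ribosomal protein genes and receptor segments. Further genes were named after their values were seen. Members, lists and named-gene rules were chosen with earlier results of these data known. Some genes, and a division of the members that used them, are not reported here. Barcodes with 10 to 100 UMIs gave the free RNA. Scrublet (scanpy 1.11.5) marked 193 NOD and 258 CD1 cells, set at 0.8% per 1000 cells. Its own threshold marked 88 and 135. Ward clustering used 1000 genes and 15 components. The computation of the ratio and its interval was run on simulated Poisson counts of NOD T cells, without spread between cells. The interval assumes this model, so the run cannot show how it covers the real counts. Python 3.11.15, numpy 2.4.6 and scipy 1.17.1 were used. Alternatives covered the cell limits, doublets, the rule, scaling, cell weights, free RNA, the minimum and the fold.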

Additional observations from a re-analysis of the deposited data

Results flagged for a closer look

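Chosen were list genes whose ratios had intervals on opposite sides of 0 in a pair of matched contrasts, with at least 1 ratio past 2-fold. These differences were not tested, since each strain had 1 library, and they rest on 21 CD8 and 30 CD4 T cells of CD1. For NOD over CD1, the log2 ratio of Rora was 2.48 in CD8 T cells (1.63–3.49) and −0.36 in CD4 T cells (−0.68 to −0.02), and that of Ccr2 was 0.85 (0.21–1.57) and −1.27 (−1.63 to −0.88). Rora, a nuclear receptor of the ROR family, was found in 7 of the 21 CD1 CD8 T cells at 50.1 CPM and in 19 of the 30 CD1 CD4 T cells at 333 CPM. The division genes Top2a and Hmgb2 stood at −0.98 and −1.12 in CD8 T cells and at 1.41 and 0.43 in CD4 T cells. Without dividing cells, Hmgb2 in CD8 T cells was at 0.47 (−0.06 to 1.04), on the same side as in CD4 T cells. The CD4 ratio of Top2a rested on 5 UMIs in 3 CD1 cells. With the minimum on the mean of both levels, Top2a fell out of the CD4 comparison.

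For CD8 over CD4, Ccr2 was at a log2 ratio of 0.56 in NOD and −1.55 in CD1, and Id2, an inhibitor of DNA binding that effector T cells express, at 0.47 (0.39–0.56) in NOD and −1.005 (−1.40 to −0.62) in CD1. Ube2c was at −1.47 in NOD, whereas in CD1 all 48 UMIs in CD8 T cells came from 1 cell and CD4 T cells had none. Without dividing cells the NOD ratio of Ube2c was 0.29 (−3.29 to 3.42), so its direction there rested on those cells.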

How the results depend on the processing

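No paired analysis was possible because each strain had 1 library with no replicate number. The intervals cover counting error only, the CD1 levels rest on 219378 UMIs, and 3 UMIs correspond to 13.7 CPM in CD1 CD8 T cells. Of the recomputed shares, ratios and counts, 98 stayed within the interval of the main value or within 1.5 times the main count and 18 did not. This tally does not measure robustness. The minimum of 1000 UMIs and 500 genes left the NOD over CD1 ratio of Ccl5 unchanged, and counts at 1.5-fold cannot be smaller than those at 2-fold. The NOD share of cells was 8.02% at a mitochondrial limit of 20%, and the NOD ratio of CD8 to CD4 T cells was 0.690 at 5%.

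With at least 20 expected UMIs, 567 genes were lower in CD8 than in CD4 T cells, 724 lower than in NK-lineage cells, and 173 higher and 20 lower in NOD than in CD1. At 1.5-fold the counts were 964 higher and 1648 lower, 1081 and 1957, and 1043 and 300. Median-of-ratios scaling left 254 higher and 142 lower in NOD, and the minimum on the mean of both levels, chosen after seeing the data, 265 and 126. Chosen after seeing the data, leaving out endothelial-marked cells left 727 genes lower against NK-lineage cells and turned Id3 to 0.25, Igfbp4 to 0.97, Iigp1 to 2.25 and Rsad2 to 0.75, and leaving out dividing cells left 36 lower in NOD and turned Hmgb2 to 0.47, Tubb4b to 0.57, Tuba1c to 2.66 and, against CD4 T cells, Ube2c to 0.29. Mir6236 turned to 2.54 with 5% free RNA subtracted. Named genes past 2-fold kept their direction in 1210 of 1211, 1184 of 1188 and 644 of 648 recomputed values against CD4, NK-lineage and CD1 cells, and 25, 30 and 28 of these values were no longer past 2-fold. The cause of each change beyond the construction of the alternative was not tested.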

Other observations

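The 48 NOD cells that met every condition of the CD8 rule except the absence of Ncr1 were chosen after their values were seen. Their Gzma level was 1029 CPM (959–1102, in 19 cells), Gzmb 239 CPM and Gzmk 99.7 CPM, beside 349, 100.1 and 201 CPM in the 439 members. They held NK-type RNA, with Fcer1g at 434 CPM and Klra8 at 211 CPM, and also Trac at 241 CPM in 44 cells and Trdc at 169 CPM in 23 cells. Itgae was at 155 CPM and Cxcr6 at 491 CPM. The 4 such cells of CD1 held 0 UMIs of Gzma.

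Among the 358 NOD T cells with neither Cd4 nor Cd8 UMIs, Trdc was at 388 CPM in 96 cells. These T cells held Gzma at 28.3 CPM, Gzmk at 26.1 CPM and Gzmb at 90.9 CPM, the last in 19 cells. Their Itgae level was 178 CPM and their Cxcr6 level 541 CPM.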
